A study of Homo sapiens with 24 samples.

Results

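The genes of DNA replication licensing and of the replication fork were examined after knockdown of IGF2BP1 in 4 human cancer cell lines. The 49 genes were chosen by name, as subunits or partners of the complexes that license, fire and copy DNA, out of 58174 genes listed in each deposited table, and each of the 49 was found once in every table. They were sorted by complex or step into 10 groups: the origin recognition complex (ORC), loading factors, MCM2-7, MCM8, CMG assembly and firing, clamp and clamp loader, polymerases and primase, RPA, Okazaki fragment processing, and fork protection with chromatin factors.

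IGF2BP1 is an RNA-binding protein of the embryo that many tumours make again, and the study set out to find the transcripts that respond to its loss. Total RNA depleted of ribosomal RNA was sequenced from A549, ES2, MV3 and PANC1 cells transfected with a control siRNA (siC) or with siRNAs against IGF2BP1 (siI1), with 3 libraries in each of the 8 groups. Per the study's methods, siC is a control taken from a nematode microRNA and siI1 is a pool of siRNAs. RNA was taken 72 h after transfection in A549, ES2 and MV3 and 96 h after it in PANC1, so that line and harvest time cannot be told apart for PANC1. All are established lines in culture, labelled as coming from lung cancer (A549), ovarian cancer (ES2), melanoma (MV3) and pancreas cancer (PANC1), and no untransfected cells were analysed here. In siC, KRT8 averaged 512 FPKM in A549 and 717 FPKM in PANC1 (KRT8 is a keratin of simple epithelia), where FPKM is the number of fragments per kilobase of gene, scaled by library size. Defining markers were absent in part: in siC the melanocyte genes SOX10, TYR and S100B were at 0 in MV3, the epithelial genes EPCAM, KRT19 and CDH1 were at 0 in ES2 while KRT8 and KRT18 averaged 9.01 and 44.4 FPKM there, and the lung genes NKX2-1 and SFTPB were at 0 in A549.

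Replication is licensed in G1, when ORC bound at an origin, together with CDC6 and CDT1, loads the ring of MCM2 to MCM7 onto DNA. At the start of S phase the kinase of CDC7 with DBF4 helps CDC45 and the GINS complex to join the ring and form the active CMG helicase. Behind it, primase and polymerase alpha start each strand, the RFC complex loads the PCNA clamp, polymerases delta and epsilon extend the DNA, RPA coats single strands, and FEN1 and LIG1 finish the lagging strand. Many of these genes are classical targets of the E2F transcription factors and are transcribed more in proliferating cells.

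Promoter sequences are shown for the 4 members that were lower after knockdown in all 4 lines, because letters matching an E2F site occurred in each. The sequences are from RefSeq (GRCh38.p14) and run 5′ to 3′ on the gene's own strand, from 250 bases before to 50 bases after the first listed start of the gene. Capitals mark the words TTTGGCGC, TTTCGCGC, TTTCCCGC and TTTGCCGC on either strand. MCM7, a helicase subunit, lies at chr7:100092233-100101940 on the minus strand and its promoter window is chr7:100101348-100101647. GINS1, a subunit of the GINS complex, lies at chr20:25391008-25452700 on the plus strand, with the window chr20:25407423-25407722. LIG1, the DNA ligase that seals Okazaki fragments, lies at chr19:48115445-48170603 on the minus strand, with the window chr19:48170295-48170594. UHRF1, which recruits the maintenance DNA methyltransferase to the fork, lies at chr19:4903080-4962154 on the plus strand, with the window chr19:4909251-4909550. Gene positions are from GENCODE release 44 (hg38). All 4 windows lie inside these GENCODE spans, which begin upstream of the RefSeq starts used for the windows.
MCM7: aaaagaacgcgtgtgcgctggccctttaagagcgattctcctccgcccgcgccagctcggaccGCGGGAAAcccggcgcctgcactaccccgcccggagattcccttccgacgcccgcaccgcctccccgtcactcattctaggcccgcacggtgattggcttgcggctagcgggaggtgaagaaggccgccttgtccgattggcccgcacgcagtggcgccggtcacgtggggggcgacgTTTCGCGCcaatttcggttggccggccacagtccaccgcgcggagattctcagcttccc
GINS1: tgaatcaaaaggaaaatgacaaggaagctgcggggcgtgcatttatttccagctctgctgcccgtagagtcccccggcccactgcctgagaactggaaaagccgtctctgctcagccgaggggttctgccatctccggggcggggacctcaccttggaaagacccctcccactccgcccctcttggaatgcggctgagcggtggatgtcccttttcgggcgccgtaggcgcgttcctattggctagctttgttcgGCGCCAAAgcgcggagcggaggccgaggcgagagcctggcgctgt
LIG1: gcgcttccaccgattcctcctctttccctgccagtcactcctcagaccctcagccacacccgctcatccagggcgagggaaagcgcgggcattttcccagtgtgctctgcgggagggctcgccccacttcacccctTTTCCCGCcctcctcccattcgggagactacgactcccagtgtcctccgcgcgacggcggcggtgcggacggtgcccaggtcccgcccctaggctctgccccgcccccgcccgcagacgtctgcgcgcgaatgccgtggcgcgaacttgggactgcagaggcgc
UHRF1: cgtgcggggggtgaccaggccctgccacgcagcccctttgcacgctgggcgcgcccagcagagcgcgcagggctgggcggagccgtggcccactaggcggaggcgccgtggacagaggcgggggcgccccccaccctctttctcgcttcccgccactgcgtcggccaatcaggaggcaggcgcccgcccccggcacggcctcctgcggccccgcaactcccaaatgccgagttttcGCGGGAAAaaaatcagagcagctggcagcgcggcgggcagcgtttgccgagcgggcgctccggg

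An E2F word was found in 20 of the 43 members with a window in the RefSeq table (46.5%), against 6.09% of 7819 genes tested in all lines and 3.33% of all 27305 genes with a window. MCM6 held 4 such words and MCM2, MCM3 and MCM7 held 2 each, while ORC1, ORC4, ORC5, GMNN, CDC45 and WDHD1 held none. MCM4, MCM5, GINS4, POLD3, RPA2 and RPA3 had no window and were not searched. The word CCAAT, on either strand, was found in 58.1% of members, 37.6% of the tested genes and 35.7% of all windows. TTTGAA, the letters of the cell cycle element CHR, was found in 1 member (2.33%), DBF4, against 9.32% and 15.4%. Words may share bases, as in MCM7, where CCAAT uses the last base of an E2F word. E2F words also overlap each other on opposite strands, so the counts of words exceed those of separate stretches. In MCM2 the words began at 3 and 7 relative to the start. In MCM6 they began at -152 and -148 and at -90 and -86. Of the members with a window that were lower in 3 or 4 lines, 10 of 16 held an E2F word, and of the others with a window 10 of 27. A match is a description of the letters and not of a bound site.

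Assigned reads numbered from 3105215 to 20082702 in a library and were fewest in A549. In MV3 the siI1 libraries, with 19238739 to 20082702 reads, were deeper than the siC libraries, with 15572492 to 16077195. In PANC1 the 7SL RNA gene RN7SL2 took 8.74 to 12.8% of reads in siC and 17.7 to 20.9% in siI1. The part of depth or of RN7SL2 in the results was not tested. The lowest mean over the 6 libraries of any line was 49.5 reads, for GINS3 in PANC1, and the fewest reads of a member in a library were 22. Exons of 24 of the 49 members share bases with another gene, 9 on the same strand and 18 on the opposite strand, and since it is not given in the sources used here whether counting used strand, reads of such genes may be split or mixed.

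The knockdown was first checked on its target. IGF2BP1 was at 39.8, 39.8 and 39.6 FPKM in siC and 15.2, 16.4 and 15.2 FPKM in siI1 in A549. ES2 libraries held it at 13.1, 14.0 and 12.1 FPKM in siC and 4.22, 4.19 and 4.03 FPKM in siI1. MV3 libraries held it at 9.09, 9.64 and 9.06 FPKM in siC and 3.02, 2.95 and 2.77 FPKM in siI1. Every siI1 library was below every siC library in these lines. In PANC1, IGF2BP1 was at 11.2, 11.3 and 11.0 FPKM in siC and 2.75, 2.87 and 2.71 FPKM in siI1, again with no overlap. The log2 fold change, siI1 against siC on the log2(FPKM + 0.5) scale, was -1.52 ± 0.052 (SE, adjusted p = 5.93e-05) in MV3, -1.83 ± 0.062 (SE, adjusted p = 0.000227) in PANC1, -1.32 ± 0.051 (SE, adjusted p = 0.000319) in A549 and -1.55 ± 0.069 (SE, adjusted p = 0.000115) in ES2, by limma over all genes of a line.

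Most of the replication genes were called lower after knockdown in MV3 and PANC1, and a minority were called lower in A549 and ES2. Of 49 members, all of them tested in every line, limma called 44 lower and 0 higher in MV3, where 19.5% of 16380 genes tested were called lower and 16.3% higher. It called 34 lower and 1 higher in PANC1, where 13.4% of 15846 genes were lower and 11.3% higher. In A549 it called 11 lower and 1 higher, against 7.83% lower and 5.93% higher of 18411 genes, and in ES2 15 lower and 3 higher, against 13.0% lower and 10.5% higher of 16920 genes. The median log2 fold change of the members was -0.51 in MV3, -0.49 in PANC1, -0.14 in A549 and -0.12 in ES2, and that of all genes tested was 0.01, -0.04, -0.01 and -0.02. With any 1 of the 6 libraries of A549 left out, 5 to 7 members were called lower there, against 4.32 to 5.62% of all genes. Members below zero numbered 47 in MV3, 44 in PANC1, 36 in A549 and 34 in ES2. In lysates of whole cultures, fewer cells in S phase and less of each mRNA per cell cannot be told apart.

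The reads of all 49 members were also summed in each library and divided by the library's assigned reads (RPM, the usual scaling by library total). In A549 they came to 4037 to 4120 RPM in siC and 3639 to 3738 in siI1. In ES2 they came to 4965 to 5173 in siC and 4808 to 4951 in siI1. Both pairs of ranges were separate but close. In MV3 the sum was 4504 to 4619 in siC and 3312 to 3365 in siI1, and in PANC1 it was 3275 to 3429 in siC and 2153 to 2253 in siI1. The RN7SL2 reads given above are part of the totals behind these RPM values. In another scaling, the FPKM of each library were brought to the same sum. This is called equal totals below and differs from equal totals of reads. With it, the median of all genes in PANC1 moved to -0.68 and that of the members to -1.20. The difference of the members from all genes was close to that under the authors' scaling (-0.49 against -0.04). The PANC1 calls with equal totals became 48 lower and 0 higher, with 54.6% of all genes lower. In ES2 that scaling left 7 members lower and 3 higher, with 8.38% of all genes lower.

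Across lines, 4 members were lower in all 4 lines, which was so for 2.51% of the 12816 genes tested in all lines, and no member was higher in all 4, which was so for 0.577%. A further 14 members were lower in 3 lines, 18 in 2 lines, 10 in 1 line and 3 in none, while 5 were higher in 1 line. The 3 that were lower in no line were ORC4, POLD2 and TIPIN. With only genes of at least 50 reads on average tested, a filter chosen after seeing the data, the members called lower were 45 in MV3, 37 of 48 in PANC1, 17 in A549 and 18 in ES2, against 30.1, 25.3, 20.9 and 26.1% of all genes tested.

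**Figure D1:**
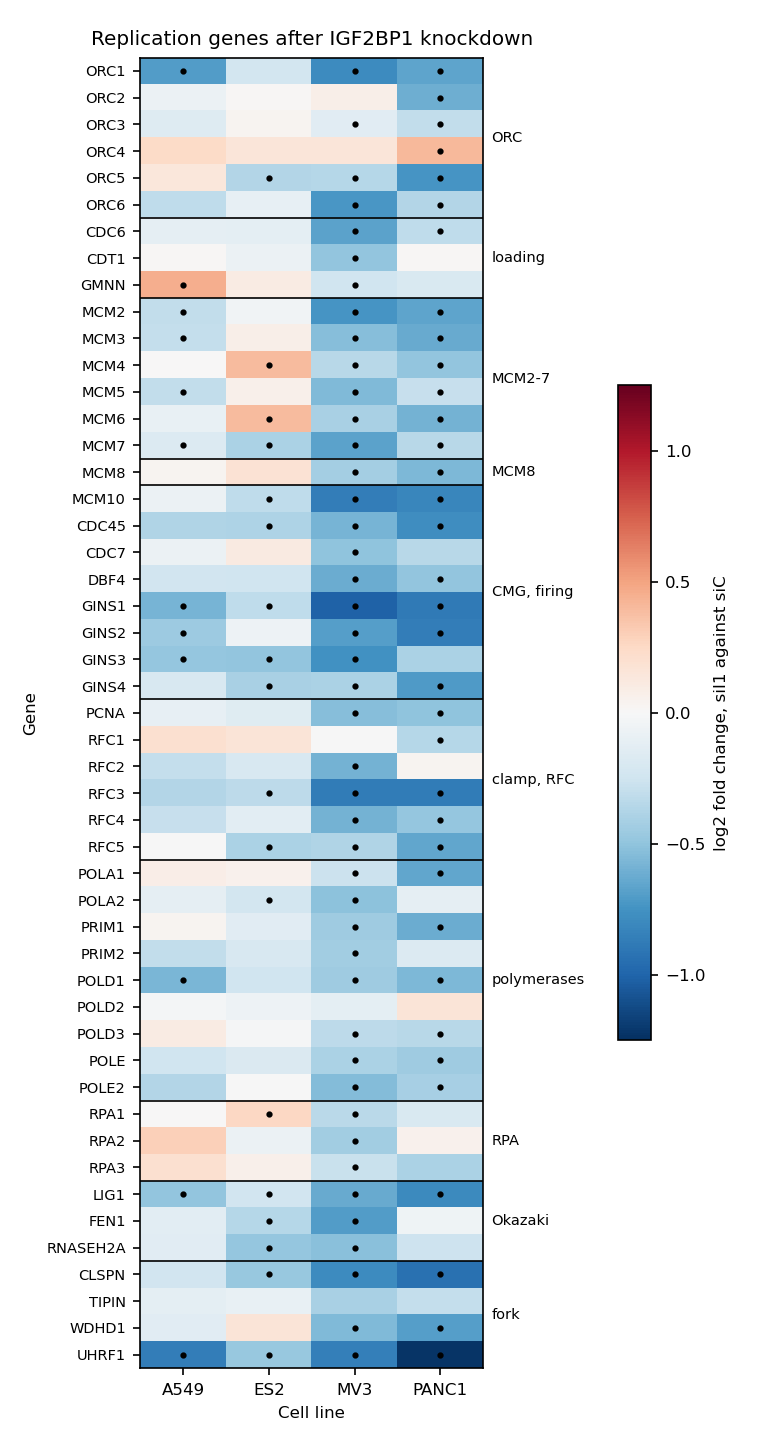
Log2 fold change, siI1 against siC, of the 49 replication genes (rows, by group) in the 4 lines (columns), in colour from blue (lower in siI1) to red (higher), with a dot where the adjusted p was under 0.05. MV3 carries 44 dots and PANC1 35, against 12 in A549 and 18 in ES2, and the red dots are GMNN in A549, MCM4, MCM6 and RPA1 in ES2 and ORC4 in PANC1.

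Groups of genes were compared by their medians, with no test between groups. The 4 GINS genes had the lowest median of the groups in A549, ES2 and MV3, and in PANC1 the fork group was lower, at -0.81 against -0.78. The 3 RPA genes had the highest median in A549, 0.20, where the lowest, that of GINS, was -0.47.

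**Figure D2:**
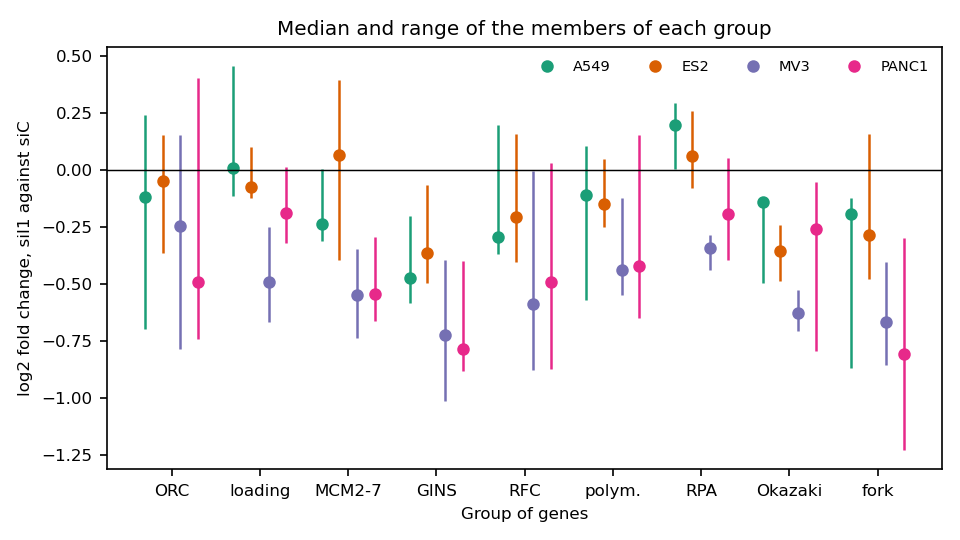
Log2 fold change, siI1 against siC, by group of genes: points are the median of the group's members and lines run from the lowest to the highest member, in each line of cells. The GINS medians lie from -0.78 (PANC1) to -0.36 (ES2), and the MCM2-7 median is above zero in ES2 alone.

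ORC, which marks origins and recruits the loading factors, had 6 subunits, of which limma called 4 lower in MV3, 5 in PANC1, 1 in A549 and 1 in ES2, and 1 higher in PANC1. Their median log2 fold change was -0.25 in MV3, -0.49 in PANC1, -0.12 in A549 and -0.05 in ES2. ORC1, the subunit whose level rises and falls with the cell cycle, was at 8.39, 10.3 and 12.0 FPKM in siC and 6.50, 6.34 and 5.36 FPKM in siI1 in A549. In MV3 it was at 10.6, 9.68 and 9.24 FPKM in siC and 6.29, 5.28 and 5.00 FPKM in siI1. Its siI1 libraries were below its siC libraries in all lines, ES2 included. ORC1 changed by -0.70 ± 0.15 (SE, adjusted p = 0.0272) on the log2 scale in A549, -0.78 ± 0.092 (SE, adjusted p = 0.00133) in MV3 and -0.66 ± 0.086 (SE, adjusted p = 0.00370) in PANC1, and its value in ES2 was -0.23 ± 0.075 (SE, adjusted p = 0.0782). A549 lost its call without siC replicate 2, siC replicate 3, siI1 replicate 1, siI1 replicate 2 or siI1 replicate 3 (adjusted p = 0.0611 to 0.0804). A fit with a replicate block (a term for the replicate number) is left out of this and later lists of lost calls unless named. With that fit, 23 calls of members over the 4 lines were lost.

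ORC4, an ATPase-fold subunit of the ring, was called higher in PANC1. There ORC4 was at 3.75, 3.78 and 4.03 FPKM in siC and 5.04, 4.68 and 6.20 FPKM in siI1, with no overlap, and its log2 fold change was 0.41 ± 0.11 (SE, adjusted p = 0.0419). The other lines gave 0.24, 0.16 and 0.16, none past the threshold. In PANC1 the call failed without siC replicate 1, siC replicate 2, siC replicate 3, siI1 replicate 1 or siI1 replicate 3 or with no filter on low values (adjusted p = 0.0753 to 0.119), and with libraries scaled to equal totals the value was -0.27 where the median of all genes was -0.68. Exons of ORC4 share bases with those of ACVR2A and MBD5 on the opposite strand.

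ORC5, another ATPase-fold subunit, differed between lines. A549 had it at 15.4, 14.1 and 12.1 FPKM in siC and 17.3, 15.5 and 13.2 FPKM in siI1, with overlap. PANC1 libraries held it at 7.98, 8.17 and 7.10 FPKM in siC and 4.48, 4.29 and 4.53 FPKM in siI1, with every siI1 library lower. ORC5 changed by -0.36 ± 0.050 (SE, adjusted p = 0.00402) in ES2, -0.35 ± 0.056 (SE, adjusted p = 0.00402) in MV3 and -0.74 ± 0.077 (SE, adjusted p = 0.00213) in PANC1, and its A549 value was 0.14 ± 0.13 (SE, adjusted p = 0.545). PANC1 and A549 differed by -0.88 (joint limma fit, adjusted p = 3.28e-05). ORC2, a core subunit, was called lower in PANC1 (-0.61), ORC3 in MV3 and PANC1 (-0.14 and -0.31), and ORC6, which helps load MCM2-7, also in MV3 and PANC1 (-0.73 and -0.37). The ORC2 call was lost without siC replicate 1, siC replicate 2, siC replicate 3 or siI1 replicate 2 (adjusted p = 0.0514 to 0.0567). For ORC3 the MV3 call was lost without siC replicate 1, siC replicate 2, siC replicate 3, siI1 replicate 2 or siI1 replicate 3, with no filter on low values, with equal totals or with voom on the reads (adjusted p = 0.0569 to 0.236) and the PANC1 call without siC replicate 1, siC replicate 2, siC replicate 3, siI1 replicate 1 or siI1 replicate 3 (adjusted p = 0.0533 to 0.0845). The ES2 call of ORC5 was lost with equal totals (adjusted p = 0.0574).

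The loading factors CDC6 and CDT1 bring MCM2-7 to ORC, and geminin (GMNN) binds CDT1 and blocks it. Of these 3 genes, limma called 0 lower and 1 higher in A549, 0 either way in ES2, 3 lower in MV3 and 1 lower in PANC1, with medians of -0.49 in MV3, -0.19 in PANC1, 0.01 in A549 and -0.07 in ES2. GMNN was at 14.6, 13.2 and 12.2 FPKM in siC and 18.3, 18.4 and 18.5 FPKM in siI1 in A549, so every siI1 library was higher. MV3 libraries held it at 18.0, 18.2 and 16.5 FPKM in siC and 14.8, 14.2 and 15.0 FPKM in siI1, so every siI1 library was lower. The log2 fold change of GMNN was 0.46 ± 0.076 (SE, adjusted p = 0.0134) in A549 and -0.25 ± 0.049 (SE, adjusted p = 0.00946) in MV3, and MV3 and A549 differed by -0.71 (joint limma fit, adjusted p = 4.23e-05). The call in A549 was not kept without siI1 replicate 2 (adjusted p = 0.0512). CDC6 changed by -0.66 in MV3 and -0.32 in PANC1, where its call was lost without siC replicate 3, siI1 replicate 2 or siI1 replicate 3 (adjusted p = 0.0606 to 0.0645). CDT1 changed by -0.49 in MV3, and its other values lay between -0.07 and 0.01.

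MCM2 to MCM7 form the ring of the replicative helicase, 1 copy of each. All 6 were lower in MV3 and in PANC1, 4 of 6 in A549 (MCM2, MCM3, MCM5 and MCM7), and in ES2 1 was lower (MCM7) and 2 were higher (MCM4 and MCM6). Their median log2 fold change was -0.55 in MV3, -0.54 in PANC1, -0.23 in A549 and 0.07 in ES2, with ranges of -0.74 to -0.34, -0.66 to -0.29, -0.31 to 0.00 and -0.39 to 0.40 in the same order. MCM7 had the highest siC level of the 6 in every line, with means and SD over 3 libraries of 84.9 ± 0.65 FPKM in MV3, 60.4 ± 0.71 FPKM in PANC1, 78.0 ± 0.51 FPKM in A549 and 98.5 ± 5.5 FPKM in ES2. The highest subunit exceeded the lowest 6.64-fold in MV3, 3.73-fold in PANC1, 5.08-fold in A549 and 4.85-fold in ES2, as FPKM per length in siC.

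**Figure D3:**
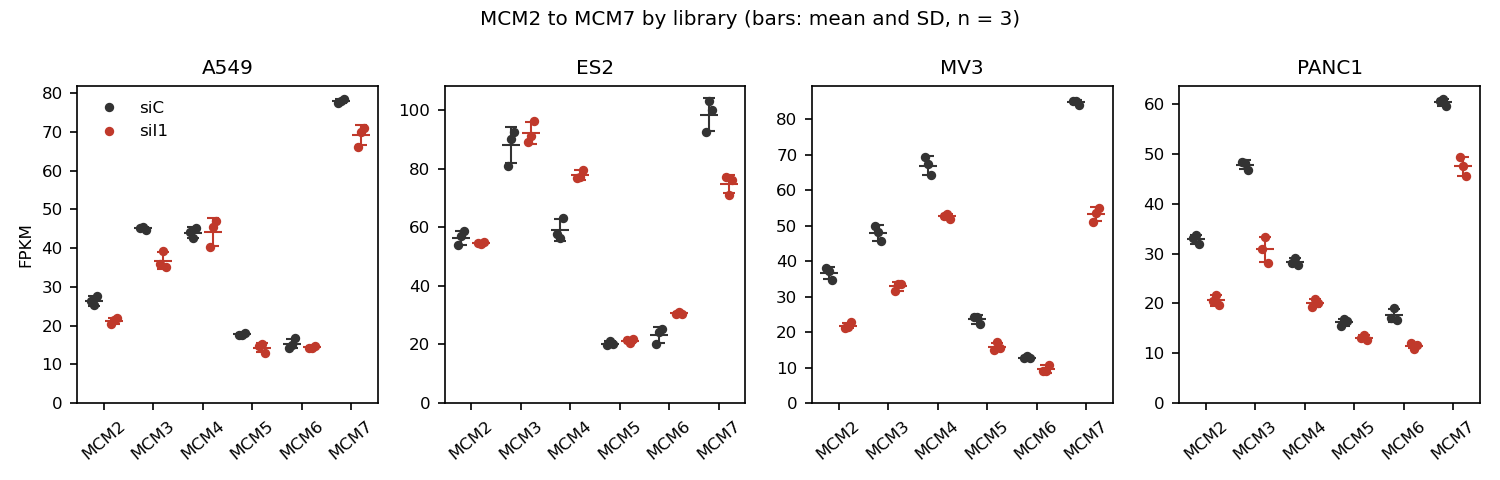
FPKM of MCM2 to MCM7 in each library of the 4 lines, siC in black and siI1 in red, with bars for mean and SD (n = 3) and each y axis on its own scale from 0. In MV3 and PANC1 the red points lie below the black ones for all 6 genes, while in ES2 MCM4 and MCM6 lie above and MCM7 below.

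In ES2, MCM4 was at 57.8, 56.3 and 63.1 FPKM in siC and 76.8, 77.0 and 79.7 FPKM in siI1. MCM6 was there at 20.3, 24.2 and 25.3 FPKM in siC and 30.4, 31.1 and 30.3 FPKM in siI1. Both genes had every siI1 library above every siC library. MCM4 changed by 0.40 ± 0.053 (SE, adjusted p = 0.00360) and MCM6 by 0.39 ± 0.085 (SE, adjusted p = 0.0200). The MCM6 call did not hold without siI1 replicate 1, siI1 replicate 2 or siI1 replicate 3 (adjusted p = 0.0573 to 0.0656).

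In PANC1, MCM4 was at 28.1, 29.2 and 27.7 FPKM in siC and 19.2, 20.8 and 20.0 FPKM in siI1. MCM6 was there at 17.0, 19.1 and 16.7 FPKM in siC and 12.0, 10.9 and 11.6 FPKM in siI1. Here every siI1 library was the lower one. The changes were -0.49 ± 0.054 (SE, adjusted p = 0.00231) for MCM4 and -0.59 ± 0.072 (SE, adjusted p = 0.00303) for MCM6, and MV3 gave -0.34 and -0.40, both called lower. In A549 neither passed the test, at 0.00 ± 0.069 (SE, adjusted p = 0.980) and -0.09 ± 0.074 (SE, adjusted p = 0.489). PANC1 and ES2 differed by -0.89 for MCM4 (joint limma fit, adjusted p = 8.48e-08) and by -0.99 for MCM6 (adjusted p = 3.21e-06).

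MCM7 was lower in all lines. A549 libraries held it at 77.5, 77.9 and 78.5 FPKM in siC and 66.2, 70.0 and 71.0 FPKM in siI1. In ES2 it was at 92.4, 103 and 99.9 FPKM in siC and 77.0, 71.1 and 76.1 FPKM in siI1. In both, no siI1 library reached the siC libraries. MCM7 was at 85.3, 85.3 and 84.2 FPKM in siC and 51.2, 53.6 and 55.0 FPKM in siI1 in MV3. In PANC1 it was at 60.7, 61.0 and 59.6 FPKM in siC and 49.5, 47.5 and 45.5 FPKM in siI1. The log2 fold change was -0.67 ± 0.033 (SE, adjusted p = 0.000134) in MV3, -0.34 ± 0.050 (SE, adjusted p = 0.00537) in PANC1, -0.17 ± 0.044 (SE, adjusted p = 0.0499) in A549 and -0.39 ± 0.057 (SE, adjusted p = 0.00479) in ES2. A549 lost its call without any 1 of the 6 libraries or with no filter on low values (adjusted p = 0.0664 to 0.131). MCM7 exons share bases with MIR93 on the same strand and with AP4M1 on the other.

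MCM2 changed by -0.31, -0.74 and -0.66 in A549, MV3 and PANC1, and its ES2 value was -0.05 (adjusted p = 0.512). MCM3 changed by -0.29, -0.54 and -0.63, and MCM5 by -0.31, -0.56 and -0.29, in the same lines. These A549 calls were lost without siC replicate 1, siC replicate 3, siI1 replicate 1 or siI1 replicate 2 (adjusted p = 0.0628 to 0.0714) for MCM2, without siC replicate 1, siC replicate 2, siC replicate 3, siI1 replicate 1 or siI1 replicate 3 (adjusted p = 0.0582 to 0.0726) for MCM3 and without any 1 of the 6 libraries, with no filter on low values, with equal totals or with median-ratio scaling (adjusted p = 0.0575 to 0.119) for MCM5. MCM5 in PANC1 lost its call without siC replicate 3, siI1 replicate 1 or siI1 replicate 3 (adjusted p = 0.0512 to 0.0576). MCM8, a paralog that works in recombination and not in the ring, was lower in MV3 (-0.43 ± 0.037 SE, adjusted p = 0.000497) and PANC1 (-0.56 ± 0.089 SE, adjusted p = 0.00726), with values of 0.03 in A549 and 0.18 in ES2.

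The group for CMG assembly and firing held 8 genes, of which MV3 had 8 called lower, PANC1 6, A549 3 and ES2 5, with 0 called higher. The median log2 fold change was -0.65 in MV3, -0.74 in PANC1, -0.31 in A549 and -0.32 in ES2. Its GINS1 to GINS4 form the GINS complex, which joins CDC45 to the MCM ring. Of the 4 GINS genes, MV3 had 4 called lower and each of the other lines had 3, with medians of -0.72 in MV3, -0.78 in PANC1, -0.47 in A549 and -0.36 in ES2.

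GINS1 was lower in all lines and was the most abundant GINS mRNA in siC of each. In A549 it was at 34.2, 38.5 and 32.9 FPKM in siC and 22.3, 24.2 and 23.4 FPKM in siI1. In ES2, GINS1 was at 29.1, 26.6 and 32.6 FPKM in siC and 22.4, 24.4 and 23.5 FPKM in siI1. No siI1 library reached the siC range in these lines. MV3 had GINS1 at 30.9, 30.4 and 31.7 FPKM in siC and 16.5, 14.3 and 14.7 FPKM in siI1. PANC1 had it at 22.2, 20.3 and 18.7 FPKM in siC and 10.5, 10.7 and 11.3 FPKM in siI1. In MV3 the mean fell from 31.0 ± 0.65 FPKM to 15.2 ± 1.1 FPKM (SD, n = 3), by 51.1%. The log2 fold change was -1.01 ± 0.055 (SE, adjusted p = 0.000153) in MV3, -0.88 ± 0.076 (SE, adjusted p = 0.00133) in PANC1, -0.58 ± 0.074 (SE, adjusted p = 0.00560) in A549 and -0.32 ± 0.081 (SE, adjusted p = 0.0350) in ES2. In ES2 the call failed without siC replicate 1, siC replicate 3, siI1 replicate 1, siI1 replicate 2 or siI1 replicate 3, with no filter on low values or with equal totals (adjusted p = 0.0572 to 0.203). GINS1 exons share bases with NINL on the opposite strand.

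**Figure D4:**
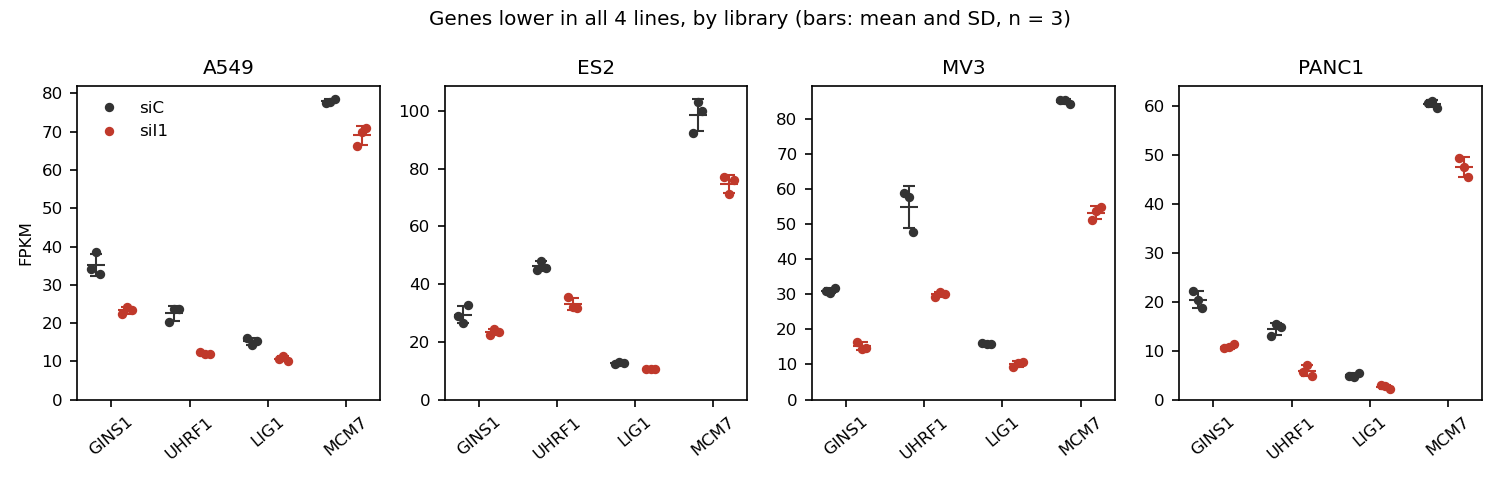
FPKM of GINS1, UHRF1, LIG1 and MCM7, the members lower in all 4 lines, in each library, siC in black and siI1 in red, with bars for mean and SD (n = 3) and each y axis on its own scale from 0. For each gene and line the 3 siI1 points lie below the 3 siC points, and the mean of UHRF1 in PANC1 falls by 58.9%.

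GINS2 ranged widely over the lines. ES2 libraries held it at 13.3, 14.7 and 16.7 FPKM in siC and 14.4, 14.2 and 14.0 FPKM in siI1, with overlap. PANC1 libraries held it at 5.02, 6.88 and 4.96 FPKM in siC and 3.09, 2.34 and 3.14 FPKM in siI1, with every siI1 library lower. GINS2 changed by -0.46 ± 0.11 (SE, adjusted p = 0.0408) in A549, -0.69 ± 0.10 (SE, adjusted p = 0.00324) in MV3 and -0.86 ± 0.16 (SE, adjusted p = 0.0116) in PANC1, and PANC1 and ES2 differed by -0.80 (joint limma fit, adjusted p = 0.00219). The call in A549 was not kept without any 1 of the 6 libraries or with no filter on low values (adjusted p = 0.0601 to 0.113). GINS2 shares exon bases with GSE1 on the opposite strand.

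GINS3 was the scarcest GINS mRNA in siC in every line. It was at 5.06, 5.29 and 5.70 FPKM in siC and 3.3, 3.53 and 4.15 FPKM in siI1 in ES2, where it had the largest fall of the members. Its groups did not overlap there, nor in the other lines. GINS3 changed by -0.49 ± 0.099 (SE, adjusted p = 0.0253) in A549, -0.50 ± 0.10 (SE, adjusted p = 0.0159) in ES2 and -0.76 ± 0.075 (SE, adjusted p = 0.000739) in MV3, and its PANC1 value, on as few as 22 reads in a library, was -0.40 ± 0.20 (SE, adjusted p = 0.198). The A549 call did not hold without siC replicate 1, siC replicate 2, siC replicate 3, siI1 replicate 2 or siI1 replicate 3 (adjusted p = 0.0705 to 0.0839) and the ES2 call without siC replicate 3 or siI1 replicate 2 (adjusted p = 0.0534 to 0.0540). GINS4 was lower in ES2 (-0.40), MV3 (-0.39) and PANC1 (-0.70). Its ES2 call was lost without siC replicate 1 or siC replicate 3 or with equal totals (adjusted p = 0.0512 to 0.101) and its PANC1 call without siC replicate 1, siC replicate 2, siI1 replicate 1 or siI1 replicate 2 or with no filter on low values (adjusted p = 0.0554 to 0.0733).

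MCM10, which activates the assembled helicase, was at 9.15, 8.80 and 8.98 FPKM in siC and 4.62, 4.21 and 5.30 FPKM in siI1 in MV3. A549 had it at 11.5, 11.2 and 10.4 FPKM in siC and 10.4, 10.8 and 10.1 FPKM in siI1. The MV3 groups were far apart and the A549 groups overlapped. MCM10 changed by -0.32 ± 0.059 (SE, adjusted p = 0.0111) in ES2, -0.87 ± 0.080 (SE, adjusted p = 0.000577) in MV3 and -0.81 ± 0.11 (SE, adjusted p = 0.00367) in PANC1, with -0.08 ± 0.069 (SE, adjusted p = 0.535) in A549. MV3 and A549 differed by -0.79 (joint limma fit, adjusted p = 4.87e-05). CDC45, which with GINS and MCM2-7 makes up the CMG helicase, was lower in ES2 (-0.39), MV3 (-0.58) and PANC1 (-0.78). DBF4, the activator of the firing kinase, was lower in MV3 (-0.62) and PANC1 (-0.50), and its kinase CDC7 in MV3 (-0.50). DBF4 in PANC1 lost its call without siC replicate 1, siC replicate 2, siC replicate 3, siI1 replicate 1 or siI1 replicate 2, with no filter on low values or with median-ratio scaling (adjusted p = 0.0539 to 0.124), and in ES2 MCM10 lost it with equal totals (adjusted p = 0.0838) and CDC45 with equal totals (adjusted p = 0.0518).

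PCNA is the sliding clamp that holds polymerases on DNA, and RFC1 to RFC5 make up the complex that loads it. Of these 6 genes limma called 5 lower in MV3, 5 in PANC1, 0 in A549 and 2 in ES2, and 0 higher, with medians of -0.56 in MV3, -0.49 in PANC1, -0.20 in A549 and -0.18 in ES2. PCNA was the most abundant of the 49 mRNAs in siC of every line, at 249 ± 4.0 FPKM (SD, n = 3) in A549 and 108 ± 8.7 FPKM in PANC1. It changed by -0.53 ± 0.046 (SE, adjusted p = 0.000458) in MV3 and -0.50 ± 0.068 (SE, adjusted p = 0.00413) in PANC1, and its values in A549 and ES2 were -0.10 and -0.15.

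RFC3, a small subunit of the loader, was at 16.9, 18.7 and 17.8 FPKM in siC and 9.41, 9.51 and 9.50 FPKM in siI1 in MV3. A549 libraries held it at 24.6, 26.9 and 20.6 FPKM in siC and 15.2, 21.0 and 19.4 FPKM in siI1. The MV3 groups did not overlap and the siI1 libraries had an SD of 0.056 FPKM, whereas the A549 groups overlapped. RFC3 changed by -0.33 ± 0.050 (SE, adjusted p = 0.00570) in ES2, -0.87 ± 0.044 (SE, adjusted p = 0.000134) in MV3 and -0.87 ± 0.12 (SE, adjusted p = 0.00416) in PANC1, with -0.37 ± 0.15 (SE, adjusted p = 0.170) in A549. ES2 lost its call with equal totals (adjusted p = 0.0510). RFC4 was lower in MV3 and PANC1 (-0.59 and -0.49), RFC5 in ES2, MV3 and PANC1 (-0.40, -0.38 and -0.65), RFC2 in MV3 (-0.59), and RFC1, the large subunit, in PANC1 (-0.36). The RFC1 call was lost without siC replicate 1, siC replicate 2, siC replicate 3, siI1 replicate 1 or siI1 replicate 3, with no filter on low values or with median-ratio scaling (adjusted p = 0.0510 to 0.125).

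The polymerases and primase numbered 9 genes: POLA1, POLA2, PRIM1 and PRIM2 of the complex that starts strands, POLD1 to POLD3 of polymerase delta, and POLE and POLE2 of polymerase epsilon. Limma called 8 lower in MV3, 6 in PANC1, 1 in A549 and 1 in ES2, and 0 higher, with medians of -0.44 in MV3, -0.42 in PANC1, -0.11 in A549 and -0.15 in ES2. POLD1, the catalytic subunit of delta, changed by -0.57 ± 0.092 (SE, adjusted p = 0.0120) in A549, -0.45 ± 0.044 (SE, adjusted p = 0.000749) in MV3 and -0.56 ± 0.070 (SE, adjusted p = 0.00326) in PANC1. With the replicate block the A549 call of POLD1 was lost (adjusted p = 0.0525). POLD2, the accessory subunit of delta and the most abundant of the 9 in siC of every line, passed in no line, at -0.03, -0.06, -0.12 and 0.16. POLA1, the catalytic subunit of alpha, changed by -0.27 ± 0.055 (SE, adjusted p = 0.0115) in MV3 and -0.65 ± 0.11 (SE, adjusted p = 0.00907) in PANC1, and PANC1 and MV3 differed by -0.38 (joint limma fit, adjusted p = 0.0104). POLA2 was lower in ES2 (-0.23) and MV3 (-0.51). The primase subunit PRIM1 was lower in MV3 and PANC1 (-0.44 and -0.62) and PRIM2 in MV3 (-0.44). POLD3, POLE and POLE2 were lower in MV3 and PANC1, by values between -0.55 and -0.33. In PANC1 the POLD3 call was lost without siC replicate 1, siC replicate 3, siI1 replicate 1 or siI1 replicate 3 (adjusted p = 0.0621 to 0.0838) and the POLE call without siC replicate 1 or siC replicate 3 (adjusted p = 0.0661 to 0.0723). POLA2 in ES2 lost its call without siC replicate 2, siC replicate 3, siI1 replicate 1 or siI1 replicate 3 or with equal totals (adjusted p = 0.0610 to 0.183) and POLA1 in MV3 with equal totals (adjusted p = 0.0628).

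RPA1 to RPA3 form the trimer that covers single-stranded DNA. Limma called 0 of 3 lower in A549, ES2 and PANC1 and 3 of 3 lower in MV3, and 1 higher, in ES2. The medians were -0.34 in MV3, -0.19 in PANC1, 0.20 in A549 and 0.06 in ES2. RPA1, the large subunit, was at 25.6, 26.3 and 25.9 FPKM in siC and 31.1, 29.9 and 32.5 FPKM in siI1 in ES2. In MV3 it was at 37.6, 38.5 and 35.3 FPKM in siC and 29.1, 29.6 and 28.9 FPKM in siI1. The ES2 libraries were all higher in siI1 and the MV3 libraries all lower. RPA1 changed by 0.26 ± 0.046 (SE, adjusted p = 0.00953) in ES2 and -0.34 ± 0.039 (SE, adjusted p = 0.00118) in MV3, and these lines differed by -0.60 (MV3 less ES2, joint limma fit, adjusted p = 0.000693). Exons of RPA1 share bases with SMYD4 on the opposite strand. RPA2 and RPA3 changed by -0.44 and -0.28 in MV3, and the RPA3 call was lost without siC replicate 1, siC replicate 2, siI1 replicate 1 or siI1 replicate 2 (adjusted p = 0.0589 to 0.0662).

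LIG1, the flap nuclease FEN1 and RNASEH2A, the catalytic subunit of the enzyme that removes RNA from DNA, process Okazaki fragments. Of the 3, limma called 3 lower in MV3, 1 in PANC1, 1 in A549 and 3 in ES2, with medians of -0.63 in MV3, -0.26 in PANC1, -0.14 in A549 and -0.35 in ES2. LIG1 was at 16.0, 14.2 and 15.4 FPKM in siC and 10.6, 11.3 and 9.96 FPKM in siI1 in A549. In ES2, LIG1 was at 12.4, 13.0 and 12.7 FPKM in siC and 10.6, 10.7 and 10.8 FPKM in siI1. The siI1 libraries were lower in both lines, by a small step in ES2. LIG1 in MV3 was at 16.1, 15.8 and 15.9 FPKM in siC and 9.28, 10.4 and 10.7 FPKM in siI1. In PANC1 it was at 4.82, 4.57 and 5.40 FPKM in siC and 2.98, 2.76 and 2.20 FPKM in siI1. It changed by -0.63 ± 0.057 (SE, adjusted p = 0.000545) in MV3, -0.79 ± 0.12 (SE, adjusted p = 0.00644) in PANC1, -0.49 ± 0.077 (SE, adjusted p = 0.0105) in A549 and -0.24 ± 0.047 (SE, adjusted p = 0.0137) in ES2. In ES2 the call failed without siI1 replicate 3 or with equal totals (adjusted p = 0.0520 to 0.119). With the replicate block the LIG1 call failed in ES2 and A549 (adjusted p = 0.0665 and 0.06).

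RNASEH2A was at 24.2, 29.1 and 24.2 FPKM in siC and 20.4, 17.0 and 17.5 FPKM in siI1 in ES2, with no overlap, and changed by -0.48 ± 0.10 (SE, adjusted p = 0.0173). In MV3 it changed by -0.52 ± 0.066 (SE, adjusted p = 0.00176), and its values in A549 and PANC1 were -0.14 and -0.26. The call in ES2 was not kept without siI1 replicate 2 or siI1 replicate 3 (adjusted p = 0.0589 to 0.0642). RNASEH2A shares exon bases with THSD8 on the same strand. FEN1 changed by -0.35 ± 0.061 (SE, adjusted p = 0.00894) in ES2 and -0.70 ± 0.045 (SE, adjusted p = 0.000208) in MV3, and its PANC1 value was -0.05, a difference from MV3 of 0.65 (joint limma fit, adjusted p = 3.15e-05).

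The fork group held CLSPN and TIPIN, which pass stalled-fork signals to the checkpoint kinase, WDHD1, which ties polymerase alpha to the helicase, and UHRF1. Limma called 3 of the 4 lower in MV3, 3 in PANC1, 1 in A549 and 2 in ES2, and 0 higher, with medians of -0.67 in MV3, -0.81 in PANC1, -0.19 in A549 and -0.28 in ES2. UHRF1 had the largest fall of all members in A549 and PANC1. In A549 it was at 20.3, 23.6 and 23.6 FPKM in siC and 12.5, 11.8 and 12.0 FPKM in siI1. In PANC1, UHRF1 was at 13.0, 15.3 and 14.8 FPKM in siC and 5.71, 7.11 and 4.90 FPKM in siI1. The siI1 libraries of both lines stood well below the siC libraries, and the PANC1 mean fell by 58.9%. ES2 had UHRF1 at 44.7, 48.1 and 45.7 FPKM in siC and 35.5, 32.2 and 31.6 FPKM in siI1. MV3 had it at 58.8, 57.7 and 47.9 FPKM in siC and 29.2, 30.8 and 29.9 FPKM in siI1. These groups did not overlap either. UHRF1 changed by -0.85 ± 0.080 (SE, adjusted p = 0.000627) in MV3, -1.23 ± 0.14 (SE, adjusted p = 0.00247) in PANC1, -0.87 ± 0.077 (SE, adjusted p = 0.00188) in A549 and -0.47 ± 0.059 (SE, adjusted p = 0.00278) in ES2.

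CLSPN was at 16.9, 19.8 and 17.8 FPKM in siC and 12.9, 13.5 and 12.2 FPKM in siI1 in ES2. PANC1 libraries held it at 14.1, 17.0 and 15.2 FPKM in siC and 7.49, 8.48 and 7.62 FPKM in siI1. A549 had it at 9.38, 9.38 and 9.32 FPKM in siC and 5.97, 6.62 and 12.2 FPKM in siI1. The ES2 and PANC1 groups did not overlap, while in A549 siI1 replicate 3 lay above all siC libraries and the other siI1 libraries below them. CLSPN changed by -0.48 ± 0.073 (SE, adjusted p = 0.00590) in ES2, -0.79 ± 0.052 (SE, adjusted p = 0.000218) in MV3 and -0.93 ± 0.088 (SE, adjusted p = 0.00170) in PANC1, with -0.24 ± 0.25 (SE, adjusted p = 0.601) in A549.

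WDHD1 was at 12.8, 12.3 and 14.1 FPKM in siC and 13.9, 16.2 and 13.9 FPKM in siI1 in ES2. MV3 libraries held it at 21.1, 20.2 and 19.4 FPKM in siC and 13.4, 13.4 and 14.2 FPKM in siI1. In PANC1 it was at 6.92, 6.99 and 6.81 FPKM in siC and 4.76, 3.88 and 3.75 FPKM in siI1. The ES2 groups overlapped, and in MV3 and PANC1 every siI1 library was lower. WDHD1 changed by -0.55 ± 0.042 (SE, adjusted p = 0.000339) in MV3 and -0.68 ± 0.098 (SE, adjusted p = 0.00500) in PANC1, and PANC1 and ES2 differed by -0.84 (joint limma fit, adjusted p = 2.59e-05). TIPIN passed in no line, with values from -0.40 to -0.09.

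Whether the knockdown effect differed between lines was tested by a joint limma fit over all 24 libraries, with an F test of the 3 differences between the lines' effects. The effect differed for 37 of 49 members, against 45.0% of 12816 genes. The widest ranges among these belonged to MCM6 (0.986 on the log2 scale), MCM4 (0.889), ORC5 (0.878), WDHD1 (0.842) and GINS2 (0.796). For these genes ES2 or A549 had the highest value and PANC1 the lowest.

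**Figure D5:**
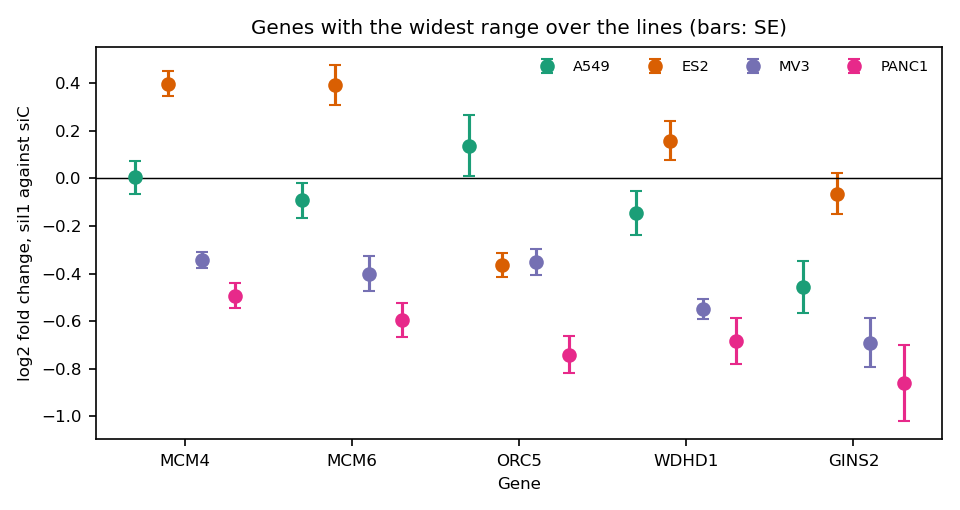
Log2 fold change, siI1 against siC, with its SE, of the 5 members with the widest range over the 4 lines among those that differed between lines. MCM4 and MCM6 are near 0.4 in ES2 and below zero in MV3 and PANC1, while ORC5 is above zero in A549 alone.

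Lines were also compared in pairs in the same fit. PANC1 and ES2 differed for 33 members (32.7% of all genes), and 32 of these were lower in PANC1. MV3 and ES2 differed for 25 members (9.78% of all genes), all of them lower in MV3. PANC1 and A549 differed for 25 (26.5%), 24 of them lower in PANC1, and MV3 and A549 for 23 (18.7%), all lower in MV3. PANC1 and MV3 differed for 13 (22.1%), of which 4 were lower in PANC1, and ES2 and A549 for 12 (21.7%), of which 5 were lower in ES2. Here lower means a more negative log2 fold change. The 6 pairs share libraries and are not independent of each other.

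A list of 43 other replication genes was examined beside the members. Of these, 36 were lower and 1 higher in MV3, 28 and 5 in PANC1, 8 and 1 in A549, and 13 and 1 in ES2. In the same order, 19.5, 13.4, 7.83 and 13.0% of all genes were lower and 16.3, 11.3, 5.93 and 10.5% higher. The 5 higher in PANC1 were close to the share of all genes there. The median log2 fold changes of the list were -0.37, -0.38, -0.13 and -0.08. Lower in all 4 lines were 4 of the 43, against 2.51% of the genes tested in all lines. They were CHAF1A, DBF4B, RECQL4 and TONSL. CHAF1A is the large subunit of the chromatin assembly factor that follows the fork, and DBF4B is another activator of CDC7. RECQL4 is a helicase needed for firing, and TONSL guards new chromatin. CCNE1, the cyclin that drives entry into S phase, had the lowest mean over the lines, with -0.81 ± 0.083 (SE, adjusted p = 0.00297) in A549, -1.04 ± 0.13 (SE, adjusted p = 0.00297) in ES2 and -0.67 ± 0.092 (SE, adjusted p = 0.00236) in MV3, and -0.15 ± 0.069 (SE, adjusted p = 0.162) in PANC1. DBF4B lay between -0.72 and -0.53 and CHAF1A between -0.78 and -0.53.

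The highest means belonged to small accessory subunits. POLD4, the smallest subunit of polymerase delta, was higher in MV3 (0.79 ± 0.091 SE, adjusted p = 0.00124) and PANC1 (0.60 ± 0.14 SE, adjusted p = 0.0223). POLE4, a histone-fold subunit of polymerase epsilon, was higher in PANC1 (0.65 ± 0.078 SE, adjusted p = 0.00289). RNASEH2B, a partner of RNASEH2A, passed in no line, from -0.19 in MV3 to 0.26 in A549.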

How the data were processed

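Total RNA libraries of 4 lines were analysed, 3 siC and 3 siI1 each, grouped by their labels and described in the study's methods as biological replicates. Per the labels and methods, the authors clipped reads with cutadapt 1.14, aligned them to hg38 with HISAT2 2.1.0, handled alignments with SAMtools 1.5, counted genes with featureCounts 1.5.3 on an Ensembl annotation, and tested with edgeR 3.30.3 and TMM scaling. The deposited values per library are FPKM, scaled by TMM-adjusted totals within a line. The unit is not named in the tables and was worked out from the values: each value times gene length was a whole multiple of 1 step per library for 100% of values (tolerance 0.001), which gave the reads. Tables were scaled separately, so levels between lines are not compared by test. The deposited log2 fold changes, p-values and FDR of the authors' own comparison (3 columns per table) were not used.

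FPKM were transformed to log2(FPKM + 0.5), which understates changes of low genes. Within a line, limma was run on genes averaging 0.5 FPKM or more in its 6 libraries, using version 3.58.1 in R 4.3.3 (intensity trend, two-sided, no covariates, Benjamini-Hochberg over all tested genes, threshold 0.05). A joint fit of 8 group means over 24 libraries gave the F test and 6 pairwise differences between lines. Scripts were tested on simulated data. Figures and tables used Python 3.11.15, numpy 2.4.6, pandas 2.3.3 and matplotlib 3.10.9. Replicates differed by more than counting noise in each group. The chi-square per gene between the reads of 2 replicates was lowest, 1.54, for A549 siI1 replicates 1 and 2. It was highest, 15.1, for PANC1 siC replicates 2 and 3. Positions and 3'UTR lengths are from GENCODE release 44 and promoters from RefSeq, 1 start per gene.

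The members, groups, other gene list and tests were chosen with earlier results of these data known. Values by library are given for IGF2BP1 and for 18 members: those called in the same direction in all lines, the 3 largest falls and rises called per line, and the 5 widest ranges among members that differed between lines. Of the other list, the 3 lowest and 3 highest means are given. Alternatives were pseudocounts of 0.1 and 1, no filter, a mean of at least 1 FPKM, equal totals of FPKM and median ratios. Further alternatives were limma voom on recovered reads, a replicate block, leaving out each library, and Cochran's Q for the joint test. A filter of 50 reads was added after seeing the data.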

Additional observations from a re-analysis of the deposited data

Results flagged for a closer look

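Members with values by library, and IGF2BP1 itself, were looked at again where the knockdown effect differed between the 4 lines in the joint limma fit. IGF2BP1 differed with adjusted p = 9.77e-05, its fall being largest in PANC1 (-1.83) and smallest in A549 (-1.32). In the ORC, adjusted p was 0.0228 for ORC1 and 0.000119 for ORC5, and it was 3.76e-05 for GMNN. In the MCM group it was 1.58e-07 for MCM4, 8.04e-06 for MCM6 and 4.14e-05 for MCM7. MCM10 gave 2.18e-05. GINS1 gave 0.000159 and GINS2 0.00688. RFC3 gave 0.00569, RPA1 0.00063, LIG1 0.00357, WDHD1 4.44e-05 and UHRF1 0.00272. MCM4, MCM6 and RPA1 were called higher in ES2 and lower in MV3, and GMNN higher in A549 and lower in MV3. The other members named here were called lower wherever they passed the test. Groups of 3 libraries were not screened for outlying libraries.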

How the results depend on the processing

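Of 2939 log2 fold changes of members recomputed under alternatives, 2682 kept their direction and side of the threshold, 153 kept their direction but no longer passed, 49 newly passed, 50 changed otherwise without a call turning, and 5 reversed. The reversed values all arose in PANC1 with equal totals: ORC4 (-0.27), CDT1 (-0.70), RFC2 (-0.70), POLD2 (-0.59) and RPA2 (-0.69), against a median of -0.68 over all genes. Members lower in A549 numbered 11, but 2 with the replicate block (all genes 3.38%), 17 with at least 50 reads (all genes 20.9%) and 5 to 7 with a library left out (all genes 4.32 to 5.62%). Members higher in A549 numbered 1, but 2 with voom, 0 with the block and 2 with at least 50 reads (all genes 9.98, 2.06 and 15.2%). With a library left out they were 0 to 1 (0 without siI1 replicate 2, all genes 2.85 to 4.13%). Members lower in ES2 numbered 15, 7 with equal totals (all genes 8.38%) and 11 to 15 with a library left out (all genes 8.85 to 10.2%). Members higher in ES2 were 2 to 3 with a library left out (all genes 6.75 to 8.39%). In MV3, 42 to 43 were lower with a library left out (all genes 15.2 to 18.5%), and 1 was higher with voom (all genes 20.4%). In PANC1, 27 to 30 were lower with a library left out (all genes 7.84 to 12.3%). The number higher in PANC1 was 0 with no filter, equal totals or the block (all genes 4.49, 0.591 and 8.72%). It was 0 to 1 with a library left out (0 without siC replicate 1 or 3 or siI1 replicate 1 or 3, all genes 6.59 to 11.9%). The 1 without siC replicate 2 was a member that newly passed and not ORC4, which lost its call there (limma, adjusted p = 0.0894). Members lower in all 4 lines numbered 2 with no filter, 7 with voom, 1 with the block and 8 with at least 50 reads (all genes 1.03, 3.93, 1.23 and 5.70%). With a library left out they numbered 2 to 5 (2 without ES2 siI1 replicate 3, all genes 1.83 to 2.49%). Members that differed between lines ranged from 31 with the block (4908 of 12816 genes) to 47 with equal totals (9007 of 12946 genes). They were 42 by Cochran's Q (6831 of all genes) and 35 to 39 with a library left out (5207 to 5986 of all genes). With equal totals the share of lower among all calls moved from 55.4 to 44.4% in ES2 and from 54.3 to 98.9% in PANC1. Deviations of siC and siI1 libraries with the same number correlated at -0.056 to 0.071 over all tested genes. This gave no sign that the numbers pair the libraries, but a weak pairing could also give such low values. With the replicate block, lower members were 42 in MV3, 28 in PANC1 and 11 in ES2 (all genes 16.2, 10.1 and 8.53%). The causes of these changes were not tested. Counting error is largest for the members with the fewest reads, the lowest mean being 49.5 reads, for GINS3 in PANC1.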

Other observations

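The loading factor CDT1 and its inhibitor GMNN were compared by the ratio of their FPKM, with no test. This ratio describes mRNA only, as these libraries hold no protein values. In A549 it was 0.596, 0.582 and 0.838 in siC and 0.432, 0.524 and 0.495 in siI1, so that the siI1 libraries were all lower. In MV3 it was 0.702, 0.689 and 0.712 in siC and 0.562, 0.597 and 0.604 in siI1, again with no overlap. In ES2 the mean was 1.16 ± 0.21 in siC and 1.01 ± 0.046 in siI1 (SD, n = 3), and in PANC1 it was 0.50 ± 0.073 and 0.575 ± 0.058, with overlap in both.

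The longest annotated 3'UTR of the 49 members had a median of 1332 nt, from 303 nt in GMNN to 7991 nt in POLE, where 9601 protein-coding genes that were tested everywhere had a median of 1899 nt. The 5 members called higher in some line, with 303 nt (GMNN), 2669 nt (MCM4), 1212 nt (MCM6), 2910 nt (RPA1) and 5117 nt (ORC4), spanned most of that range. Of the members lower in all lines, MCM7 had 702 nt, UHRF1 1354 nt, GINS1 3084 nt and LIG1 3724 nt.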
